A study of Arabidopsis thaliana with 6 samples.

Results

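The genes described here act in salicylic acid immunity and in systemic acquired resistance, the state in which a plant infected in one leaf becomes resistant in others. They are 37 named genes, chosen by locus from 33617 in the table: genes of salicylic and pipecolic acid synthesis, the EDS1 and PAD4 node, the NPR receptors, pathogenesis-related (PR) output genes and the RPW8 homologues HR1 to HR4. WRKY genes were not included. A gene with fewer than 60 fragments over the 6 libraries counted as unmeasured, which left 21 measured genes. The other 16 are named below with their counts.

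Messenger RNA was sequenced from whole Arabidopsis thaliana seedlings of 2 genotypes, with 3 libraries each, numbered 0, 1 and 2. One group was cog1-2D, an activation-tagging mutant, named for COG1, a Dof transcription factor gene; activation tagging inserts enhancers that can raise a nearby gene's expression. The other, labelled wt, carried no mutation and is given as Col-0 in the design. Both were harvested at 7 days, untreated, after growth in long days at 23 °C on MS medium. COG1 is not among the genes described here, and its level in these libraries is not reported. The labels name 1 mutant line and do not give its background accession. Whether the libraries stem from separate cultures is not said, so p-values measure only the spread between these samples, which may be technical.

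Salicylic acid is made in Arabidopsis mainly from isochorismate in the chloroplast. It is perceived by the NPR proteins, of which NPR1 activates and NPR3 and NPR4 repress target genes such as PR1. The lipase-like proteins EDS1, PAD4 and SAG101 pass on signals from intracellular immune receptors and raise salicylic acid synthesis. N-hydroxypipecolic acid, made from lysine through pipecolic acid, carries the signal between leaves and works together with salicylic acid.

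In cog1-2D the measured genes moved both ways, also within a pathway. Of 21 tested, 6 were higher (ICS1, PBS3, SAG101, NPR3, ALD1 and DLO1) and 7 lower (EDS5, PAD4, CBP60G, UGT76B1, PR5, PAD3 and HR4) (edgeR's quasi-likelihood test over 10347 genes, adjusted p under 0.05 by Benjamini-Hochberg). Over all tested genes 36.3% were called, 16.3% higher and 20.0% lower. Of the measured members 61.9% were called. That difference was not tested. Members such as HR4 and ALD1 entered the test mainly through the genotype in which they were high, so the share is a description only. The median log2 fold change of the 21 was -0.10, against 0.00 over all tested genes. Their median absolute log2 fold change was 0.73, against 0.20. Calls of at least 2-fold were made in 6 of them, against 8.56% of all tested genes. In 12 of the 21 the 3 libraries of one genotype all lay above the other 3, against 49.8% of all tested genes. The members were chosen with earlier results of these data known, so these comparisons too are descriptions only.

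Whether a gene was measured went with its strand. Libraries held between 10575945 and 11202122 fragments, and 60 fragments were reached by 72.0% of plus-strand but 1.16% of minus-strand nuclear protein-coding genes. The minus-strand share of fragments was 0.0301% in wt replicate 1 and 0.139% to 0.169% in the other libraries. Of the 37 genes, 14 lie on the minus strand, and none of these was measured. The highest total among them was 8 fragments, for NPR1. All 5 leaf markers were measured, but 3 of them, RBCS1A, CA1 and PSAF, lie on the minus strand. RBCS1A had 94 fragments in wt replicate 1 and 555 and 570 in wt replicates 0 and 2. On the plus strand, LHCB1.3, an antenna protein gene of photosystem II, had a mean of 23390 CPM in wt. CPM are fragments scaled to a common library size with edgeR's TMM factors. The 5 root markers summed to 569 to 716 fragments in the cog1-2D libraries and 930 to 1058 in wt, with 4 tested and 2 lower. TIP2;3 and PYK10 lie on the minus strand. TIP2;3 had 1 fragment in all, and PYK10 had 13 in wt replicate 1 and 94 and 88 in wt replicates 0 and 2. In bulk samples fewer cells of a type and less RNA per cell cannot be told apart, and the part of root tissue in the results below was not tested. The 5 seed storage markers summed to 390 fragments in cog1-2D replicate 2, of which 369 were of cruciferin gene CRC, and to between 1 and 27 in the other libraries. CRB and SESA1, seed storage markers on the plus strand, were at 0 in every library. Pollen markers summed to at most 12 fragments in a library. SAG12, the marker of leaf senescence and on the plus strand, was at 0 throughout. Without cog1-2D replicate 2, 6 members were called higher and 6 lower, and without wt replicate 1 the counts were also 6 and 6. PAD4 lost its call in each case, and without wt replicate 1 PBS3 also lost its call while DMR6 passed.

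**Figure D1:**
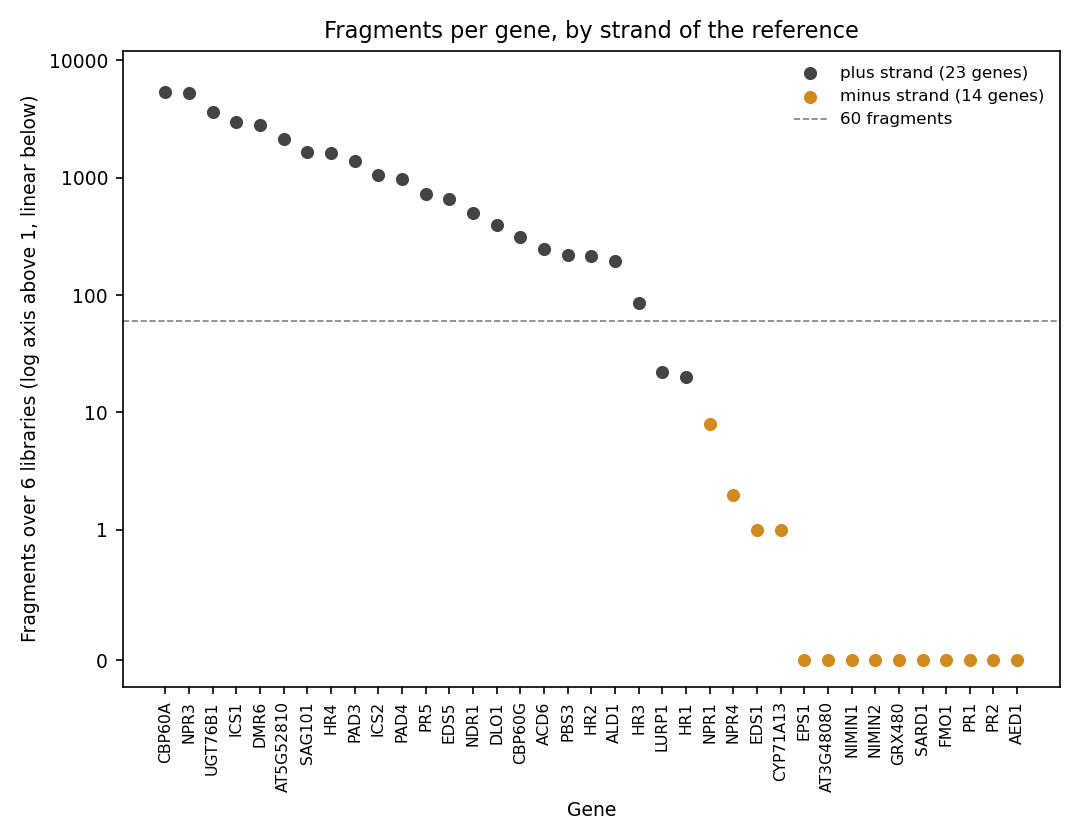
Fragments summed over the 6 libraries for each of the 37 genes (vertical axis, logarithmic above 1 and linear below), with plus-strand genes in dark grey and minus-strand genes in orange. All 14 minus-strand genes lie at 8 fragments or fewer, and 21 of the 23 plus-strand genes lie above the dashed line at 60.

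Of the unmeasured genes, 10 were listed at 0 in every library. These were PR1 and PR2, the classical markers of the salicylic acid response, and EPS1, the acyltransferase that releases salicylic acid in the last step of its synthesis. They also included FMO1, which hydroxylates pipecolic acid, and SARD1, a transcription factor that activates ICS1. The others were NIMIN1 and NIMIN2, which bind NPR1, GRX480, a glutaredoxin, the apoplastic protease gene AED1, and AT3G48080, annotated as a hydrolase. EDS1 and CYP71A13, a camalexin synthesis gene, had 1 fragment each, NPR4 had 2 and NPR1 had 8. All of these lie on the minus strand, and low counts there do not show absence of expression or of change. On the plus strand, LURP1, needed for full resistance to downy mildew, had 3, 5 and 9 fragments in cog1-2D and 0, 0 and 5 in wt. HR1 had 2, 6 and 5 against 4, 1 and 2, and with totals of 22 and 20 both fell short of 60. The measured genes nearest above it were HR3 with 86, ALD1 with 193 and HR2 with 213.

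Sequences upstream of the members with the largest changes are shown to mark cores that known regulators of the pathway bind. Binding at these windows was not tested. Each is the run of 250 bases before the annotated start, 5′ to 3′, read from RefSeq's TAIR10.1 genome. Capitals mark TTGAC, the core of the W-box bound by WRKY factors, and TGACG, the core bound by TGA factors, on either strand (GTCAA and CGTCA on the reverse). The 3 largest falls come first and then the 3 largest rises.
HR4 (chr3:18732771-18733020, plus strand): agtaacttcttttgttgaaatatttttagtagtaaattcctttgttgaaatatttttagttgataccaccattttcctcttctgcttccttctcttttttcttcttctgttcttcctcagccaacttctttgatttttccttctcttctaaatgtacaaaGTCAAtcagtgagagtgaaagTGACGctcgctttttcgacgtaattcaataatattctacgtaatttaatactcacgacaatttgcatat
EDS5 (chr4:18185187-18185436, plus strand): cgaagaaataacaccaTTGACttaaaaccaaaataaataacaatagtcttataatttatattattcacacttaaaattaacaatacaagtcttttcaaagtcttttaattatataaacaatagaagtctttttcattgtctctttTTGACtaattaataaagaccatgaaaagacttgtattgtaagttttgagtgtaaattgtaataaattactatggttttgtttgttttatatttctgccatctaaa
PR5 (chr1:28177420-28177669, plus strand): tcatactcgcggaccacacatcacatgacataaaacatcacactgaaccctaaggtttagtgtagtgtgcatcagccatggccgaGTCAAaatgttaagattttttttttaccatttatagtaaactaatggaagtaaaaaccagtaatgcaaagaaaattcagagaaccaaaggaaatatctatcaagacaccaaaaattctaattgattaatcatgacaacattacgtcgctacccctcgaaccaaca
ALD1 (chr2:5768167-5768416, plus strand): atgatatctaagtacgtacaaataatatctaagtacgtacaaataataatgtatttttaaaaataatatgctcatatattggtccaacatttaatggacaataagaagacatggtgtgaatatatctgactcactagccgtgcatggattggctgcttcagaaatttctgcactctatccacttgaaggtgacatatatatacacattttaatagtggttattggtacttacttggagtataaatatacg
PBS3 (chr5:4267206-4267455, plus strand): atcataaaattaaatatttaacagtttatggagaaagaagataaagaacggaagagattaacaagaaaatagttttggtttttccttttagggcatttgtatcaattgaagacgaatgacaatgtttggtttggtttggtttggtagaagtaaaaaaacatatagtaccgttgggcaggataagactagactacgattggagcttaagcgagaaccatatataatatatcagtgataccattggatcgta
DLO1 (chr4:6490767-6491016, plus strand): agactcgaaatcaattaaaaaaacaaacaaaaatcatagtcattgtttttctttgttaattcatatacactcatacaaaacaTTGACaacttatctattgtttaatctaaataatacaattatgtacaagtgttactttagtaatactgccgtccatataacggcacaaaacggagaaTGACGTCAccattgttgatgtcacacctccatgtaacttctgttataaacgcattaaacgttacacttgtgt

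These windows differed in the cores they held. EDS5 had TTGAC at 234 and 105 bases before its start, and PR5 had it once, on the reverse strand, 165 bases before. HR4 had TTGAC on the reverse strand at 90 bases and TGACG at 69. In DLO1 a TTGAC lay at 168 bases, and TGACG on both strands, at 72 and 69, formed 1 palindrome. ALD1 and PBS3 held neither core. Over the 13 members that were called, TTGAC was in 6 of the windows (3 of 6 higher, 3 of 7 lower) and TGACG in 3 (2 and 1). Of 27437 windows of the same length before nuclear protein-coding genes, 44.9% held TTGAC and 18.6% held TGACG. The letters GAAATT, the core bound by CBP60g and SARD1, were in 4 of the 13 windows, against 32.2% of all. They occurred 3 times before ICS1 and as an overlapping pair on opposite strands before ALD1. AAAG, the core bound by Dof factors, was in 12 of the 13, against 98.0% of all, with a median of 4 matches in the members and 4 over all windows. The exception was ALD1. A match is a description and not a binding site, and a TTGACG would count under both of the first cores.

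Among the genes of salicylic acid synthesis, ICS1 and EDS5, which act in succession, went opposite ways. ICS1 (AT1G74710, EDS16 in the reference, chromosome 1, 28070295 to 28074177), the isochorismate synthase that supplies most salicylic acid in infected leaves, had 595, 608 and 583 fragments in cog1-2D and 376, 394 and 410 in wt. Every mutant library lay above every wt library. Scaled, ICS1 rose from 36.2 ± 3.1 to 55.5 ± 2.7 CPM (SD, n = 3 per genotype), a log2 fold change of 0.62 ± 0.08 (SE; edgeR, adjusted p = 0.000306).

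EDS5 (AT4G39030, chromosome 4, 18185437 to 18189224), the transporter that exports isochorismate from the chloroplast, had 55, 60 and 62 fragments in cog1-2D and 182, 156 and 137 in wt. The groups were far apart, and EDS5 fell from 14.5 ± 1.5 to 5.5 ± 0.3 CPM, a log2 fold change of -1.40 ± 0.12 (edgeR, adjusted p = 3.58e-05). It shares 213 bases with AT4G39040 on the other strand, which had 7 fragments in all, and the strand setting of the counting is not given in the sources used here.

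PBS3 (AT5G13320, chromosome 5, 4267456 to 4271064), which joins glutamate to isochorismate, was a weakly expressed gene with 61, 56 and 29 fragments in cog1-2D and 33, 21 and 19 in wt. Replicate 2 of cog1-2D, scaled, lay below wt replicate 0, so the groups overlapped. PBS3 rose from 2.22 ± 0.57 to 4.56 ± 1.7 CPM, a log2 fold change of 1.03 ± 0.33 (edgeR, adjusted p = 0.0363). The call of PBS3 did not hold with cog1-2D replicate 0 or 1 or wt replicate 1 or 2 left out (edgeR, adjusted p = 0.121, 0.126, 0.084 and 0.101). It held without wt replicate 0 or cog1-2D replicate 2.

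ICS2 (AT1G18870), the second isochorismate synthase, had 136, 97 and 162 fragments in cog1-2D and 380, 135 and 137 in wt. Replicate 0 of wt stood far above the rest. The log2 fold change of ICS2 was -0.69 ± 0.36, with a 95% interval of -1.51 to 0.13 (edgeR, adjusted p = 0.17), and -0.07 without wt replicate 0. ICS1 and ICS2 are similar in sequence, and reads of one could have been counted for the other.

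In the EDS1 and PAD4 node the partners of EDS1 were also called in opposite directions. The call of PAD4 did not hold in every fit, and whether the changes of SAG101 and PAD4 differ was not tested. SAG101 (AT5G14930, chromosome 5, 4828499 to 4830982), which forms complexes with EDS1, had 338, 367 and 354 fragments in cog1-2D and 186, 193 and 208 in wt. It rose from 18.0 ± 1.7 to 32.9 ± 1.9 CPM, with no overlap and a log2 fold change of 0.87 ± 0.09 (edgeR, adjusted p = 8.96e-05). The authors' deposited table gives a log2 fold change of 1.03 for SAG101, from FPKM values of 11.1 in wt and 22.7 in the mutant.

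PAD4 (AT3G52430, chromosome 3, 19431095 to 19434450), the other partner of EDS1, had 148, 147 and 129 fragments in cog1-2D and 198, 170 and 175 in wt. The groups did not overlap, but the difference was small: PAD4 fell from 16.6 ± 0.54 to 13.2 ± 1.3 CPM, a log2 fold change of -0.33 ± 0.10 (edgeR, adjusted p = 0.0302). PAD4 did not pass in DESeq2 (adjusted p = 0.148), nor with cog1-2D replicate 2 or wt replicate 0, 1 or 2 left out (edgeR, adjusted p = 0.0908, 0.0731, 0.0525 and 0.0618). NDR1 (AT3G20600), a membrane protein needed by many coiled-coil immune receptors, had 71 to 94 fragments in cog1-2D and 74 to 100 in wt. Its log2 fold change was 0.05, with a 95% interval of -0.37 to 0.48.

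Of the 3 salicylic acid receptors only NPR3 was measured. NPR3 (AT5G45110, chromosome 5, 18228768 to 18231588) had 993, 993 and 933 fragments in cog1-2D and 819, 802 and 753 in wt. It rose from 72.7 ± 3.0 to 90.7 ± 5.6 CPM, with no overlap, a log2 fold change of 0.32 ± 0.06 (edgeR, adjusted p = 0.00426). On the FPKM scale, which allows levels of different genes to be compared, NPR3 had 37.9 ± 2.3 in cog1-2D, where CBP60A had 37.1 ± 1.7 and DMR6 35.6 ± 1.7, so the order of these genes is not resolved.

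Of the calmodulin-binding protein 60 family, CBP60G was lower and CBP60A did not pass. CBP60G (AT5G26920, chromosome 5, 9475679 to 9478777), a transcription factor that activates ICS1, had 34, 40 and 15 fragments in cog1-2D and 99, 58 and 66 in wt. Every mutant library was below every wt library, although replicates differed widely. CBP60G fell from 6.77 ± 1.6 to 2.79 ± 1.3 CPM, a log2 fold change of -1.29 ± 0.32 (edgeR, adjusted p = 0.0129). CBP60A (AT5G62570), a relative that restrains immunity, had 840 to 869 fragments against 826 to 1052. Its log2 fold change was -0.10, with a 95% interval of -0.26 to 0.06. CBP60G was thus lower in the same mutant libraries in which ICS1 was higher.

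The pipecolic acid branch held the largest rise. ALD1 (AT2G13810, chromosome 2, 5768417 to 5772266), the aminotransferase that starts pipecolic acid synthesis from lysine, had 69, 43 and 46 fragments in cog1-2D and 7, 12 and 16 in wt. Scaled, the lowest mutant library, 4.11 CPM, lay well above the highest wt library, 1.51 CPM. ALD1 rose from 1.08 ± 0.45 to 4.91 ± 1.3 CPM, 4.53-fold, a log2 fold change of 2.18 ± 0.33 (edgeR, adjusted p = 0.000976). In wt it had the lowest FPKM of the 21 genes, 0.778 ± 0.33, and in cog1-2D it had 3.54 ± 0.96.

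AT5G52810, listed with the pipecolic acid genes and annotated as an NAD(P)-binding protein, had 342 to 394 fragments in cog1-2D and 276 to 373 in wt. Its log2 fold change was 0.11, with a 95% interval of -0.13 to 0.35, and it overlaps AT5G52800 by 89 bases. UGT76B1 (AT3G11340, chromosome 3, 3556554 to 3558361), which attaches glucose to salicylic acid and N-hydroxypipecolic acid, had 370, 417 and 401 fragments in cog1-2D and 807, 808 and 786 in wt. The groups were far apart and replicates lay close together. UGT76B1 fell from 73.6 ± 3.3 to 36.9 ± 2.6 CPM and was 1.99-fold lower, with a 95% interval of the log2 fold change of -1.15 to -0.84 (edgeR, adjusted p = 8.41e-06).

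The enzymes that hydroxylate salicylic acid, which lowers its level, were both measured. DLO1 (AT4G10500, chromosome 4, 6491017 to 6492578), a salicylic acid hydroxylase, had 75, 107 and 77 fragments in cog1-2D and 57, 35 and 42 in wt. It rose from 4.08 ± 0.82 to 8.07 ± 1.9 CPM, with no overlap, a log2 fold change of 0.98 ± 0.21 (edgeR, adjusted p = 0.00675). DMR6 (AT5G24530), its relative, had 511, 457 and 515 fragments against 452, 485 and 405, with overlap through wt replicate 1. The log2 fold change of DMR6 was 0.16, with a 95% interval of -0.03 to 0.35 (edgeR, adjusted p = 0.159), and it passed without wt replicate 1 (0.25, edgeR, adjusted p = 0.0358). Whether the changes of DLO1 and DMR6 differ was not tested.

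Only PR5 and ACD6 were measured of the genes listed as output. PR1, PR2 and AED1 lie on the minus strand, and LURP1 was too low. PR5 (AT1G75040, chromosome 1, 28177670 to 28179022), a thaumatin-like protein gene induced by salicylic acid, had 83, 53 and 71 fragments in cog1-2D and 211, 137 and 175 in wt. The groups were well separated, and PR5 fell from 15.9 ± 2.7 to 6.42 ± 1.4 CPM, a log2 fold change of -1.31 ± 0.18 (edgeR, adjusted p = 0.000505). ACD6 (AT4G14400), an ankyrin membrane protein that promotes salicylic acid defence, had 40, 32 and 19 fragments against 89, 37 and 30. As with ICS2, wt replicate 0 was far above the rest. The log2 fold change of ACD6 was -0.74 ± 0.41 (95% interval -1.67 to 0.20, edgeR, adjusted p = 0.194), and -0.17 without wt replicate 0.

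PAD3 (AT3G26830, chromosome 3, 9887917 to 9889791) encodes the cytochrome P450 of the last step to camalexin, the main phytoalexin of Arabidopsis. It had 209, 167 and 148 fragments in cog1-2D and 272, 308 and 271 in wt. All mutant libraries were below all wt libraries, and PAD3 fell from 26.1 ± 2.9 to 16.3 ± 3.1 CPM, a log2 fold change of -0.68 ± 0.14 (edgeR, adjusted p = 0.00493).

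**Figure D2:**
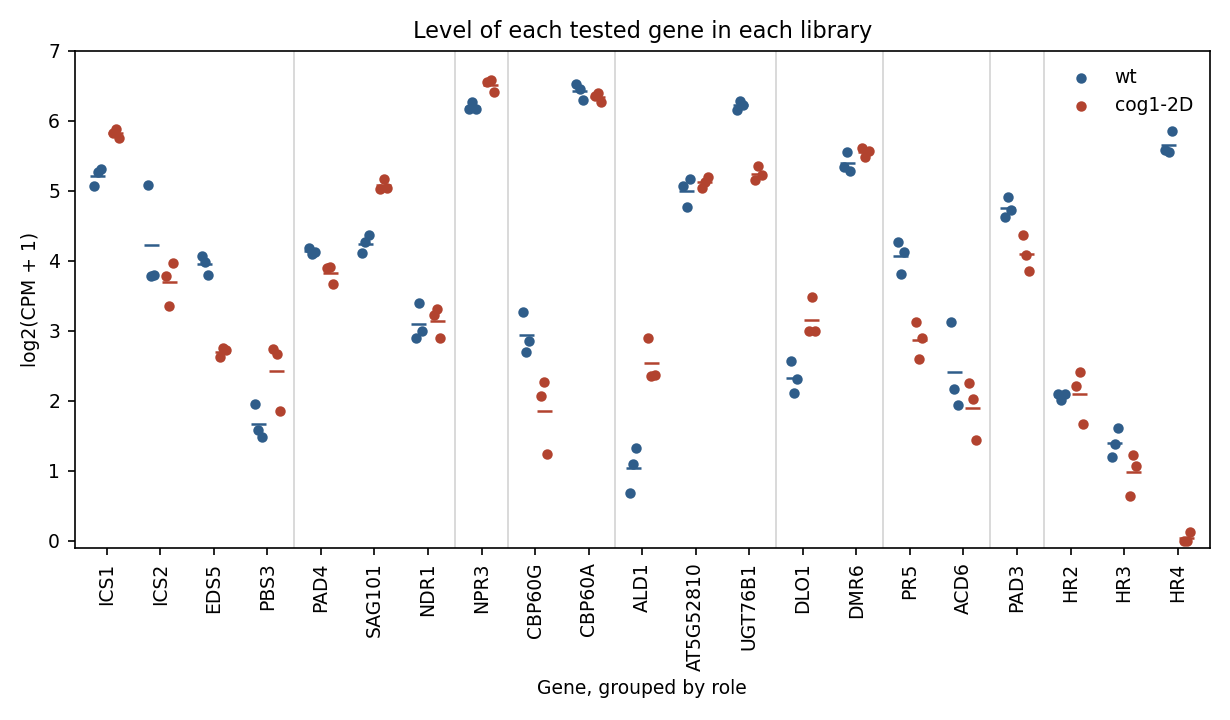
Level of each of the 21 tested genes in each library as log2(CPM + 1), with points for the 3 libraries of each genotype, short lines for their means and grey lines between roles. ICS1 and SAG101 lie higher in every cog1-2D library and EDS5, UGT76B1 and PR5 lower, while wt replicate 0 stands above the other libraries in ICS2 and ACD6.

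**Figure D3:**
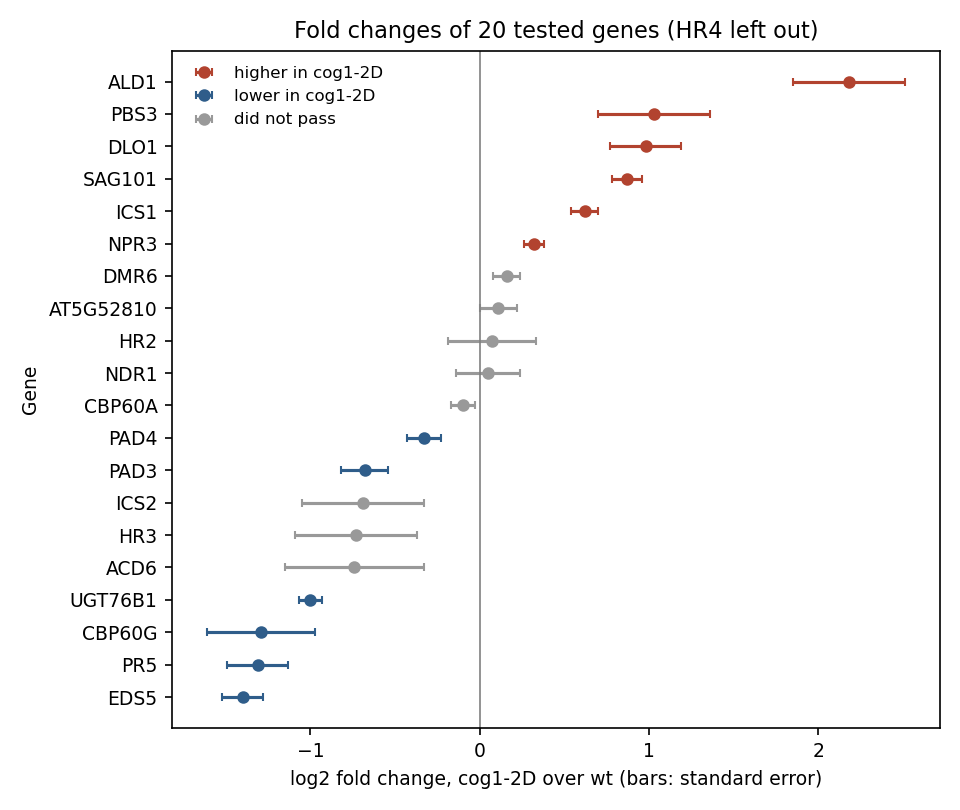
Horizontal positions are log2 fold changes, mutant over wt, of 20 tested genes, with bars of 1 standard error from the edgeR fit. HR4 is left out because it lies at -10.19. ALD1 is at 2.18 and EDS5 at -1.40, and grey points are genes that did not pass.

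The RPW8 homologues HR1 to HR4 stand in a row on chromosome 3 and are relatives of RPW8, which gives broad resistance to powdery mildew in other Arabidopsis accessions. HR4 (AT3G50480, 18733021 to 18734420) had 0, 0 and 1 fragments in cog1-2D and 539, 482 and 603 in wt. Scaled for library size the ratio of summed fragments was 1602, with an exact binomial 95% interval of 287 to 63295 that covers counting error only. The edgeR fit gave a different estimate, a log2 fold change of -10.19, or 1168-fold lower (edgeR, adjusted p = 4.05e-08). Without cog1-2D replicate 2, which held the single fragment, HR4 was at least 351-fold lower, taking 3 fragments over both libraries left as the limit of a count of 0. In wt HR4 had the highest FPKM of the 21 genes, 57.3 ± 6.9. Its edgeR log2 fold change was the 16th lowest of all tested genes, and 9 tested genes had at most 3 fragments over the cog1-2D libraries and 1000 or more over wt. The labels do not give the background accession of cog1-2D. Whether its genome holds HR4 with the reference sequence was not tested, so the low count need not mean lower expression.

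The genes beside HR4 were detected in both genotypes. HR2 (AT3G50460), 4.21 kb away, had 39, 45 and 24 fragments in cog1-2D and 38, 32 and 35 in wt. Its log2 fold change was 0.07, with a 95% interval of -0.51 to 0.65. HR3 (AT3G50470), 2.52 kb away, had 6, 14 and 12 against 15, 17 and 22, with a log2 fold change of -0.73 and an interval of -1.56 to 0.09 (edgeR, adjusted p = 0.15). HR1 had 13 fragments in cog1-2D and 7 in wt and was not tested. As these genes are homologous neighbours, reads could have been split among them. Across the 10 measured genes nearest to HR4, 5 on each side, log2 fold changes ran from -0.78 to 0.37. Of these 10, 3 were called higher and 3 lower, where 36.3% of all tested genes were called. The nearest on the far side, AT3G50520 at 13.5 kb, had 922 fragments in cog1-2D and 1485 in wt.

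**Figure D4:**
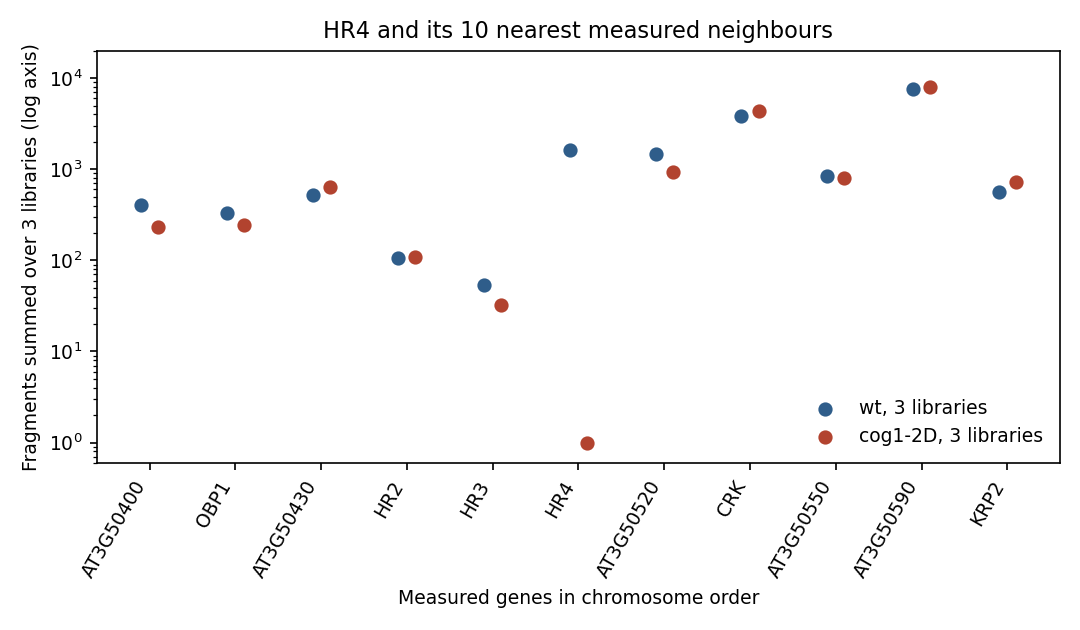
Fragments summed over the 3 libraries of each genotype (logarithmic axis) for HR4 and its 10 nearest measured neighbours in chromosome order. Only HR4 is near 0 in cog1-2D, at 1 fragment against 1624, while each neighbour has 32 or more fragments in both genotypes.

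Levels varied more between replicates in these genes than in a typical gene. The median SD of log2(CPM + 1) within a genotype was 0.22 in cog1-2D and 0.17 in wt for the 21 tested members, against 0.09 and 0.10 over all tested genes. The members also had fewer fragments, with a median of 967 over the 6 libraries against 2034, and the part of depth in this spread was not tested. The largest SDs were 0.75 for ICS2 and 0.63 for ACD6 in wt, and 0.55 for CBP60G and 0.49 for PBS3 in cog1-2D. Replicate 1 of cog1-2D was the highest of its group in 12 of the 21 genes, and replicate 2 was the lowest in 11. Over all tested genes those shares were 30.6% and 36.0%. Replicate 0 of wt was the highest of its group in 10 of the 21 genes and the lowest in 7. Over all tested genes the shares for that library were 36.8% and 35.6%.

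On the FPKM scale the members spanned from 0.778 for ALD1 to 57.3 for HR4 in wt. UGT76B1 came next there with 47.3 ± 2.6, then CBP60A with 39.6 ± 3.1, and DMR6 and NPR3 followed with 31.7 ± 3.5 and 30.3 ± 1.5. Of the 20 pairs of neighbours in that order, 13 had overlapping libraries, DMR6 and NPR3 among them. In cog1-2D UGT76B1 had 23.8 ± 1.7 and HR4 was last. ICS1 had 29.0 ± 1.4 there, level with AT5G52810 at 28.9 ± 1.6. In wt ICS1 had 18.9 ± 1.8, and its libraries overlapped those of PR5 at 17.5 ± 2.8.

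The authors' deposited table of called genes lists 13 of the members, 6 as higher and 7 as lower in the mutant. It lists 29.8% of the genes with 60 or more fragments. Of the 13 members listed, 11 were called here as well. The authors' deposited table also lists ICS2 (log2 fold change -0.68, q = 0.000349) and ACD6 (-0.79, q = 0.00674), the genes with a single high wt library, which did not pass edgeR's test. The other 2 members called here, PAD4 and HR4, have no row in the table as used here.

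Beyond the members, 57 other genes of the pathway were taken from lists by function. On the plus strand 32 of them were tested, and 24 lie on the minus strand. Of the 32, 3 were higher and 6 lower (edgeR), or 28.1%, with a median absolute log2 fold change of 0.17. Over all tested genes 36.3% were called, and the median absolute log2 fold change was 0.20. Whether this share differs from that of the members was not tested. Without cog1-2D replicate 1, 1 was higher and 5 were lower. Among 9 tested TGA factors and NPR1 partners, TGA7 fell from 36.2 ± 3.4 to 22.2 ± 1.5 CPM (log2 fold change -0.71 ± 0.09, edgeR, adjusted p = 0.000326). TGA1, a TGACG-binding factor, rose by 0.31 ± 0.09 on the log2 scale, but did not pass with cog1-2D replicate 0 or 1 or wt replicate 0 or 2 left out (edgeR, adjusted p = 0.073, 0.0975, 0.0586 and 0.0697). The thioredoxin gene TRXh3 (TRX3 in the reference) had a log2 fold change of -0.23 ± 0.08 (edgeR, adjusted p = 0.0439). Its call was lost with any library but wt replicate 1 left out (edgeR, adjusted p = 0.0671 to 0.146), with upper-quartile factors (0.0589) and in limma. The other 6 of that list did not pass.

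Of 7 tested genes that restrain immunity or cell death, RIN4, a target of bacterial effectors that immune receptors guard, rose from 57.7 ± 2.7 to 89.4 ± 2.4 CPM (log2 fold change 0.63 ± 0.06, edgeR, adjusted p = 4.13e-05). NUDT7, a Nudix hydrolase that limits EDS1-dependent defence, fell from 51.6 ± 1.0 to 28.1 ± 0.5 CPM, a log2 fold change of -0.87 ± 0.06. CPR1, an F-box protein that lowers the level of some immune receptors, rose by 0.25 ± 0.06 on the log2 scale, and with cog1-2D replicate 1 left out its adjusted p was 0.0533 (edgeR). Among 3 tested salicylic acid response genes SAG13 had a log2 fold change of -2.42 ± 0.40, from 3.72 ± 1.4 to 0.687 ± 0.29 CPM. Of 4 tested genes of the phenylalanine route and of salicylic acid modification, PAL3, a phenylalanine ammonia-lyase gene, had a log2 fold change of -0.52 ± 0.07. Of 7 other CBP60 and CAMTA genes, AT4G31000, a calmodulin-binding protein gene, had a log2 fold change of -0.49 ± 0.08. Of the 2 tested genes of lipid signals in systemic resistance, 0 were called with edgeR or DESeq2, and 0 had an unadjusted p under 0.05 in edgeR. GLY1, a glycerol-3-phosphate dehydrogenase gene, had the smaller p (log2 fold change 0.16 ± 0.07, edgeR, adjusted p = 0.121; DESeq2, adjusted p = 0.412).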

How the data were processed

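RNA-seq of 6 libraries was analysed. The submitters' processing notes name Cuffdiff, Cufflinks 2.2.1, HISAT2 2.1.0 and Trimmomatic 0.36, and build TAIR10. Neither their order nor the strand setting is given in the sources used here. The kit was stranded, per the labels. For each gene, the authors deposited expected counts without scaling, per the file headers, and 98.1% of these were whole within 1e-06. They also deposited FPKM values per library and a table of called genes with FPKM, log2 fold change and q-value, per the file headers.

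Expected counts were rounded and tested with edgeR 4.0.16 in R 4.3.3 (filterByExpr, TMM, quasi-likelihood F-test, genotype only, Benjamini-Hochberg at 0.05 over 10347 genes). Totals ran from 10575945 to 11202122 fragments. The SE is the log2 fold change over the square root of F, and intervals are at 95%. The steps were tested on simulated counts. Gene positions, symbols and sequences come from TAIR10.1, which 32225 of 33617 genes matched. Python 3.11.15 and scipy 1.17.1 were used for tables.

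The members and lists were chosen with earlier results of these data known. All measured members are named, as are up to 3 called genes of each other list, or the one with the smallest p. Alternatives were DESeq2 1.42.0; limma 3.58.1 on log2 FPKM plus 1 or 0.1 in genes with a mean FPKM of 0.5 or more; RLE or upper-quartile factors; robust dispersion; no filter, or a mean count of 50 or more; a block for replicate number; and each library left out in turn. A fit on plus-strand genes only was added after seeing the data.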

Additional observations from a re-analysis of the deposited data

How the results depend on the processing

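Of the 331 values that the 21 tested members took under 16 alternatives, 313 kept their direction and their side of the threshold. The calls of ICS1, EDS5, SAG101, NPR3, CBP60G, ALD1, UGT76B1, DLO1, PR5, PAD3 and HR4 held under every alternative in which they were tested, and PBS3 and PAD4 each lost theirs under some. PBS3 was also lost in limma with a pseudocount of 1 or 0.1 (adjusted p = 0.0851 and 0.0848). Without a low-count filter ICS2 and ACD6 passed (log2 fold changes -0.70 and -0.75, edgeR, adjusted p = 0.0028 and 0.0407), which gave 9 lower members. The direction of NDR1, not called, turned to -0.05 without cog1-2D replicate 1, to -0.06 without wt replicate 0 and to -0.0044 without wt replicate 2, in a range up to 0.24. That of HR2, not called, turned to -0.14 without cog1-2D replicate 1, in a range up to 0.31. With a mean count of 50 or more, ALD1 and PBS3 were not tested and 4 members were higher. With 1 library left out, 5 to 6 members were higher and 6 to 7 lower. Over all genes 1129 to 1488 were higher and 1554 to 1890 lower, and of the other pathway genes 1 to 3 were higher and 5 to 7 lower. The members' median ran from -0.16 to -0.06. Same-numbered libraries deviated from their group means with correlations of -0.0146, -0.0162 and 0.106, so the numbers were not taken to pair them. A replicate block gave 6 higher and 7 lower members and 1863 higher and 2230 lower genes in all. With plus-strand genes only, 6 members were higher and 7 lower. Few fragments limit HR1, HR3 and LURP1. In the main edgeR fit HR1 and LURP1 were not tested, and HR3 did not pass (edgeR, adjusted p = 0.15). The 14 minus-strand members had at most 8 fragments in libraries in which 72.0% of plus-strand genes reached 60, so they could not be tested.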
